A study of Homo sapiens with 12 samples.

Results

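The genes described here are 37 regulators of the cell division cycle, named as a list and found in the peak lists by their Entrez gene numbers, and 21 of the 37 had at least 1 N6-methyladenosine (m6A) peak. The lists of the whole series named 10536 genes. The cells were 143B, an established human osteosarcoma line, transfected either with ALKBH5-siRNAs or with scrambled-siRNA and harvested at 48 h; ALKBH5 is a demethylase of m6A. The assay, MeRIP-seq, sequences RNA fragments that an m6A antibody has precipitated. The series has 12 samples in 4 groups of 3: immunoprecipitates of ALKBH5 knockdown cells, immunoprecipitates of scrambled cells, and the inputs of both. Each of the 6 immunoprecipitates came with its own peak list, and the 6 inputs were not analysed here. The replicate number also stood for the method. Replicate 1 used polyadenylated RNA and a Synaptic Systems antibody, replicate 2 used total RNA with a Millipore kit, and replicate 3 used polyadenylated RNA with another Millipore antibody, although the labels list the Synaptic Systems antibody for all 6. The labels do not say whether the replicates were separate cultures, or how many siRNA sequences were pooled. Any p-value therefore measures the spread between these libraries, which may be technical.

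m6A is placed on transcripts by a nuclear writer complex, removed by demethylases such as ALKBH5, and read by proteins that can change the stability and translation of the RNA. The cell cycle machinery turns on cyclins that switch on kinases, on inhibitors and phosphatases that set the activity of those kinases, on E2F transcription factors, on the helicase that opens replication origins, and on a ubiquitin ligase that ends mitosis. Many of its transcripts are made and destroyed once per cycle.

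Below, "called" means that a list holds at least 1 peak with the number of the gene, and covered length is the summed exon length of such peaks. Without read counts in the lists, sequencing depth is unknown and no counting interval could be given. Errors below are the spread between libraries. A gene without a call may still carry the mark, since a peak can be missed at a low RNA level or a low depth, and RNA levels were not measured here. The lists of the knockdown held 17563, 5917 and 18360 peaks in replicates 1, 2 and 3, and those of the scrambled cells held 15139, 5677 and 18724. ALKBH5 itself was called in 0 of 3 knockdown and 2 of 3 scrambled libraries (210 and 150 nt), which is no measure of its RNA. Peaks were listed for 5 of 10 osteoblast markers, RUNX2 and SPP1 among them, for 2 of 5 mesenchymal, 0 of 5 epithelial, 0 of 3 endothelial and 1 of 4 blood cell markers (CD14). SP7 and ALPL, which also define osteoblasts, had none.

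The 21 genes with a peak made up 56.8% of the 37, beside 48.6% of the 20052 protein-coding genes in the RefSeq table. They held 93 peaks over the 6 libraries, in 30 regions. A region here joins the peaks of a gene that overlap on the same strand. CDC25A, E2F3, MCM2, MCM3 and CDKN1B were called in every library, 5 of the 21 (23.8%), beside 23.3% of all genes with a peak. A further 6 were called in 4 libraries, 5 in 3, 4 in 2 and 1 in a single library. For these numbers of libraries the shares over all genes were not counted. The peaks were 60 to 1194 nt long with a median of 210 nt, against 241 nt over all peaks, and 11.8% of them crossed a splice junction, that is had at least 2 exon blocks, against 13.0% of all peaks.

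The 16 genes with no peak in any library included all 6 cyclins on the list. These were CCND1 and CCND3, the D cyclins of G1, CCNE1 and CCNE2, the E cyclins of the entry into S phase, CCNA2 of S and G2, and CCNB1 of mitosis. The kinases CDK1 and CDK4 had none, nor had CDC6, which loads the MCM helicase, and CDC45, which activates it. In the mitotic part of the list PLK1, AURKB, BUB1B, MAD2L1, CDC20 and CDC23 had none. In a wider list of the pathway, outside the 37, the cyclins CCNF and CCND2 were called in 6 and 5 libraries. The other cyclins of that list were CCNH, called in 1 library, and CCNA1, CCNB2 and CCNB3, which had no peak.

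**Figure D1:**
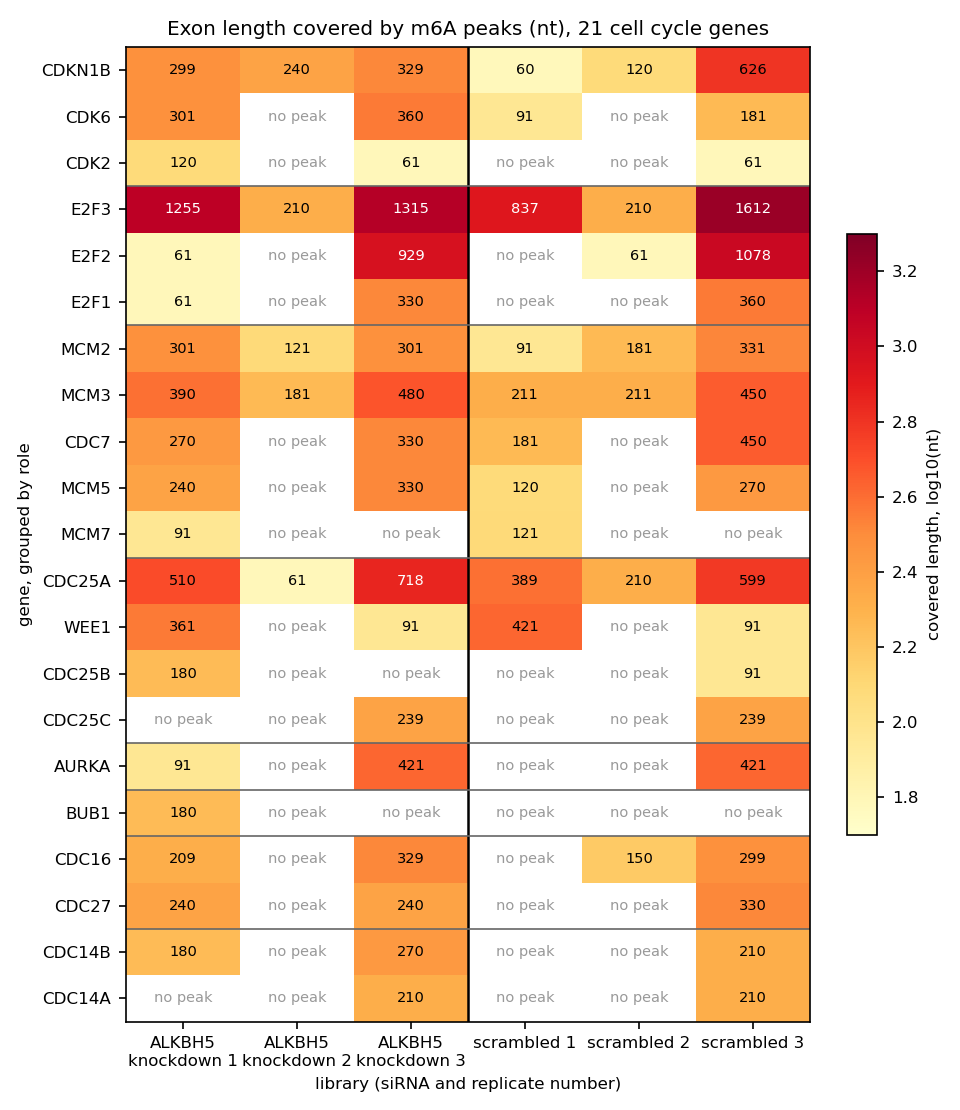
Exon length covered by m6A peaks in nt (number and colour, log10 scale) for the 21 cell cycle genes with a peak (rows, grouped by role) in the 3 ALKBH5 knockdown libraries (left) and the 3 scrambled libraries (right); white cells have no peak. E2F3 is the widest row, up to 1612 nt, and most white cells lie in replicate 2 of both conditions and in scrambled replicate 1.

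Among the G1 and S phase cyclins, kinases and kinase inhibitor, 3 of 8 genes had peaks. CDKN1B encodes p27, an inhibitor of cyclin-dependent kinases, and was called in all 6 libraries. Its peaks covered 299, 240 and 329 nt in knockdown replicates 1, 2 and 3, against 60, 120 and 626 nt in the scrambled replicates. The knockdown values lay close together and inside the range of the scrambled ones, and the knockdown was longer in 2 of the 3 pairs. The peaks lay in 1 region, chr12:12870868-12874114 (plus strand) (hg19, as for all positions here), with 656 nt of exon. In knockdown replicate 2 the region held 3 separate short peaks, and in scrambled replicate 3 a single peak of 3 blocks. CDK6, a kinase partner of the D cyclins, had 301 and 360 nt in knockdown replicates 1 and 3, against 91 and 181 nt in scrambled replicates 1 and 3, with no peak in replicate 2. The knockdown was longer in both pairs. Of the 3 CDK6 regions, that at chr7:92244171-92244530 (minus strand), was shared by knockdown replicates 1 and 3 and scrambled replicate 3. The scrambled replicate 1 peak lay elsewhere, at 92462451 to 92462541. CDK2, the partner of cyclins E and A, had 120 and 61 nt in knockdown replicates 1 and 3, against 61 nt in scrambled replicate 3, all at chr12:56365437-56365586 (plus strand). Its 2 replicate 3 peaks were among the weakest of their lists, at percentiles 9.38 in the knockdown and 1.56 in the scrambled cells, counting the best-scored peak of a list as 100.

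All 3 E2F factors had peaks, and E2F3 had the most of any member. E2F3, an activator of S phase genes, held 10 peaks over the libraries. Its covered length was 1255, 210 and 1315 nt in knockdown replicates 1, 2 and 3, against 837, 210 and 1612 nt in the scrambled replicates. The pair of replicate 1 was longer in the knockdown, that of replicate 3 longer in the scrambled cells, and that of replicate 2 equal. The region called in all 6 libraries lay at chr6:20488416-20491528 (plus strand) and spanned a splice junction. Its percentiles were 97.9, 88.9 and 98.7 in the knockdown and 88.7, 71.9 and 99.9 in the scrambled cells, so it ranked in the better-scored part of every list. A further region upstream, at 20402406 to 20402823, was called in replicates 1 and 3 of both conditions.

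E2F2, a close relative of E2F3, showed a different pattern. It had 61 nt in knockdown replicate 1, no peak in knockdown replicate 2 and 929 nt in knockdown replicate 3, against no peak, 61 nt and 1078 nt in the scrambled replicates. The large values were those of replicate 3 in both conditions. Its 3 regions lay on the minus strand of chromosome 1. The middle one, at 23834143 to 23834293, was called in knockdown replicates 1 and 3 and in no scrambled library, with 61 and 91 nt at percentiles 3.95 and 9.38. E2F1, whose protein is held in check by the retinoblastoma protein, had 61 and 330 nt in knockdown replicates 1 and 3, against 360 nt in scrambled replicate 3, all in 1 region at chr20:32264372-32264761 (minus strand).

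Of the 7 replication origin genes, 5 had peaks, each in a single region. MCM2, a subunit of the replicative helicase, had 301, 121 and 301 nt in knockdown replicates 1, 2 and 3, against 91, 181 and 331 nt in the scrambled replicates. The groups overlapped, and only the replicate 1 pair was longer in the knockdown. That region lay at chr3:127340589-127340919 (plus strand). MCM3, another subunit, had 390, 181 and 480 nt in the knockdown replicates against 211, 211 and 450 nt in the scrambled replicates, at chr6:52128932-52129411 (minus strand). It was longer in the knockdown in 2 of 3 pairs, and the groups overlapped. MCM5 had 240 and 330 nt in knockdown replicates 1 and 3, against 120 and 270 nt in scrambled replicates 1 and 3. CDC7, the kinase that fires licensed origins, had 270 and 330 nt in knockdown replicates 1 and 3, compared with 181 and 450 nt in scrambled replicates 1 and 3. MCM5 was thus longer in both of these pairs and CDC7 in that of replicate 1 only. MCM7 was called in replicate 1 of both conditions and nowhere else, at 91 nt in the knockdown and 121 nt in the scrambled cells. Its percentile was 3.95 in the knockdown library and 88.3 in the scrambled one.

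**Figure D2:**
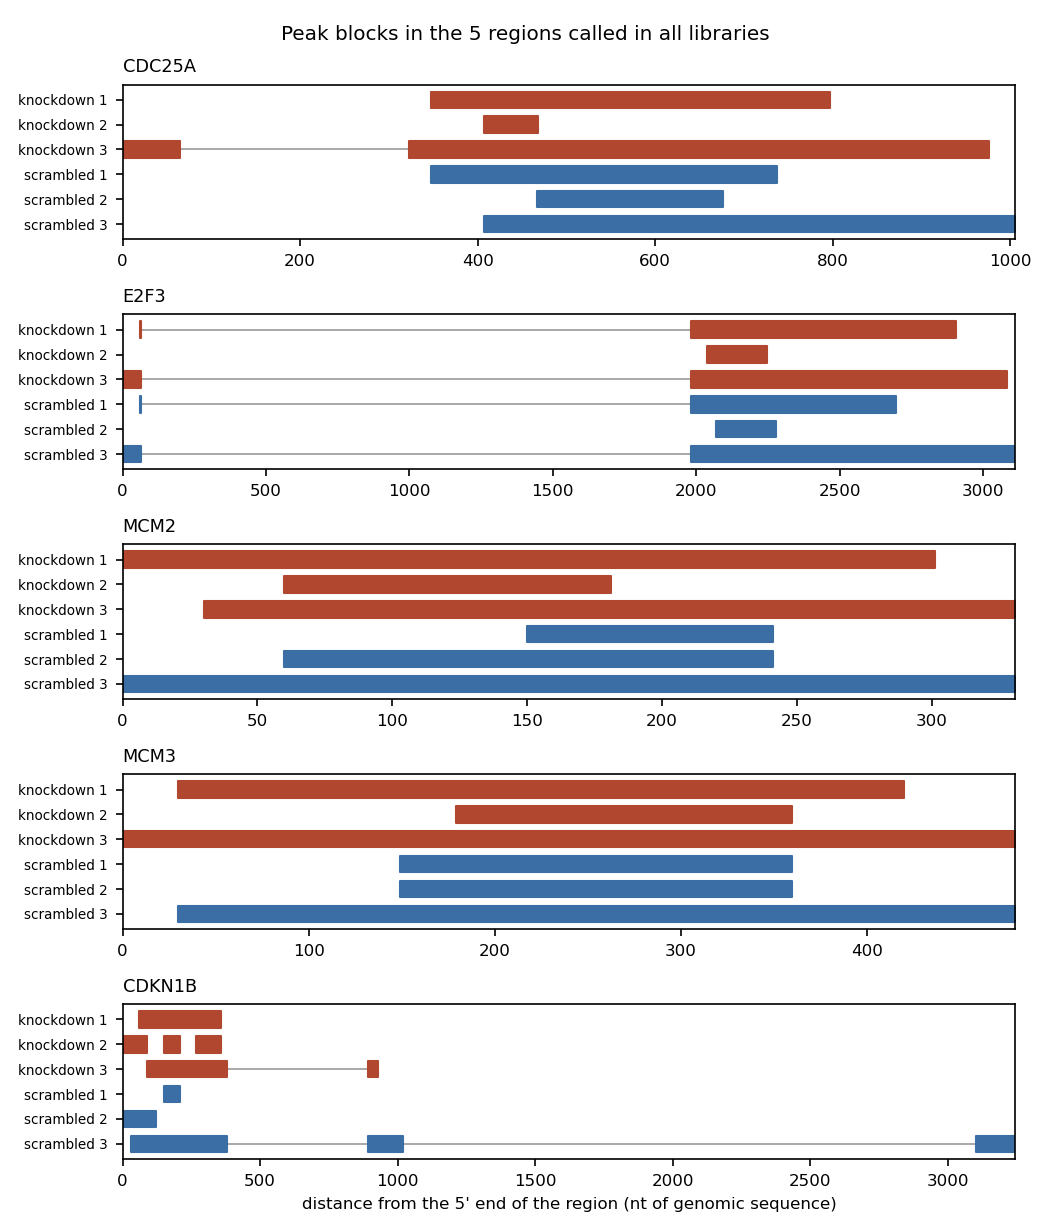
Peak blocks (bars) of each library in the 5 regions called in all 6 libraries, by distance in nt from the 5′ end of the region; red bars are ALKBH5 knockdown replicates 1 to 3, blue bars below them scrambled replicates 1 to 3, and a thin line joins the blocks of a peak. In each gene the replicate 2 bars cover less than the replicate 3 bars in both conditions, and the replicate 1 bar covers more in the knockdown than in the scrambled library.

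The kinase control of mitotic entry had peaks in 4 of 7 genes. CDC25A, a phosphatase that removes the inhibitory phosphates from cyclin-dependent kinases, had 510, 61 and 718 nt in knockdown replicates 1, 2 and 3, against 389, 210 and 599 nt in the scrambled replicates. Replicates 1 and 3 were longer in the knockdown and replicate 2 was longer in the scrambled cells. The shared region lay at chr3:48199893-48200898 (minus strand). It scored at percentiles 96.8, 39.8 and 98.4 in the knockdown and 93.4, 80.2 and 94.8 in the scrambled cells. Only knockdown replicate 2 fell outside the better-scored part of its list. CDC25C was called only in replicate 3, with 239 nt in both conditions. CDC25B was called once in each condition, with 180 nt in knockdown replicate 1 and 91 nt in scrambled replicate 3, and these peaks shared no site. The first lay at chr20:3776505-3776684, and the second at 3786582 to 3786672. WEE1, the kinase that adds the phosphates that the CDC25 enzymes remove, had 361 and 91 nt in knockdown replicates 1 and 3, against 421 and 91 nt in scrambled replicates 1 and 3. Its sites went by replicate number and not by siRNA. On the plus strand of chromosome 11, the regions at 9595258 to 9595468 and 9595498 to 9595857 were called in replicate 1 of both conditions, and that at 9596304 to 9596424 in replicate 3 of both.

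Of the 12 genes of mitosis and its exit, 6 had peaks, and all of these lay in replicates 1 and 3 apart from a CDC16 peak in scrambled replicate 2. AURKA, a kinase of the spindle poles, was the only mitotic kinase of 3 with a peak. It had 91 and 421 nt in knockdown replicates 1 and 3, against 421 nt in scrambled replicate 3. BUB1, a kinase of the spindle checkpoint, had its single peak of 180 nt over 3 exon blocks in knockdown replicate 1. CDC16 and CDC27 are subunits of the anaphase-promoting complex, the ubiquitin ligase that starts chromosome separation. CDC16 had 209 and 329 nt in knockdown replicates 1 and 3, against 150 and 299 nt in scrambled replicates 2 and 3. CDC27 had 240 nt in both knockdown replicates 1 and 3, against 330 nt in scrambled replicate 3. It has near-identical copies elsewhere in the genome, and how the authors placed reads shared with them is not given in the sources used here. The phosphatase CDC14B had 180 and 270 nt in knockdown replicates 1 and 3, against 210 nt in scrambled replicate 3. CDC14A was called only in replicate 3, with 210 nt in both conditions. The budding yeast relative of these phosphatases drives the exit from mitosis.

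**Figure D3:**
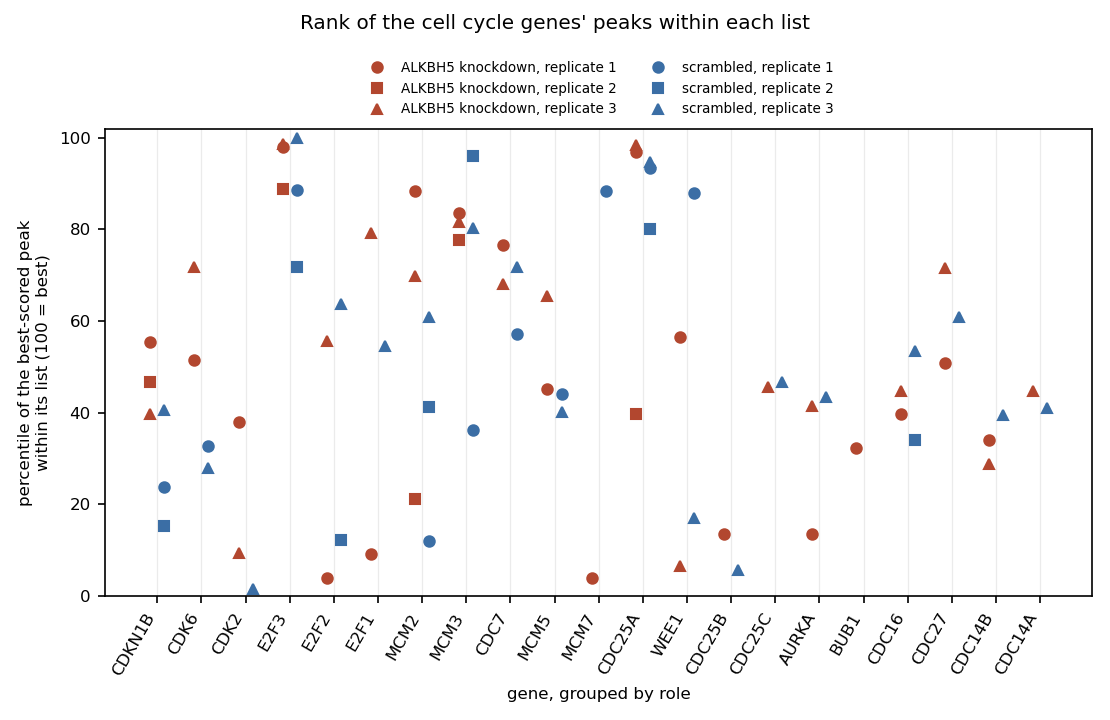
Percentile of each gene's best-scored peak within its list (vertical axis, 100 is the best score) for the 21 genes with a peak (horizontal axis, by role); red is ALKBH5 knockdown, blue scrambled, and the marker shape is the replicate number. E2F3 is at 71.9 or above in every library, while the replicate 1 values of MCM7, MCM2 and MCM3 lie far apart between the conditions.

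The main comparison set the knockdown against the scrambled cells within each replicate number. In replicate 1, 9 of the 21 genes (42.9%) were called by the knockdown library alone, where the share of all genes was 16.9%. They were CDK2, CDC25B, CDC14B, CDC16, CDC27, AURKA, BUB1, E2F1 and E2F2. None of the 21 was called the other way round, against 5.00% of all genes. In replicate 2 the knockdown alone called 0 (7.99% of all genes) and the scrambled library alone called 2, CDC16 and E2F2 (7.35% of all genes). In replicate 3 the knockdown alone called 0 (6.28% of all genes) and the scrambled library alone called CDC25B (7.83% of all genes). More members called in the knockdown alone were thus seen in replicate 1 and in no other pair. With the lists of replicate 1 made equal in size, 5 of the 9 remained. With all lists made equal, the knockdown library of replicate 1 alone called 3 members, none of them among the 9.

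Most of the genes that replicate 1 called only in the knockdown were called in a scrambled library of another number. Of the 9, 8 had a peak in scrambled replicate 2 or 3, and the same held for 78.2% of the 1784 genes of that kind over the whole table. BUB1 was the exception. For CDK2, CDC14B, CDC16, CDC27, AURKA and E2F1 the peak of knockdown replicate 1 overlapped a scrambled peak, while for CDC25B and E2F2 it lay at another site. The combination of knockdown replicate 1 with both libraries of replicate 3 and no other was shown by 5 of the 21, against 9.94% of all genes. Scrambled replicate 1 shared 9 of its 10 called members with scrambled replicate 3, which called 10 more, while knockdown replicate 1 shared 17 of 19 with scrambled replicate 3. Such sharing was not counted over all genes, of which scrambled replicate 3 called 88.2%. Scrambled replicate 1 also held fewer peaks than its pair. With the knockdown list of replicate 1 reduced to its best-scored 15139 peaks, the size of the scrambled list, the knockdown alone called 5 members, CDK2, CDC14B, CDC16, CDC27 and BUB1, beside 13.3% of all genes, and the scrambled library alone called MCM7, beside 6.72%. With all 6 lists reduced to 5677 peaks, the knockdown alone called 3, CDC7, MCM2 and MCM3 (9.95% of all genes), and the scrambled library alone called 2, MCM7 and WEE1 (7.98%). Both of these comparisons were added after the data were seen. In them, peaks of equal score were kept in list order. CDC25B and AURKA, both at percentile 13.5 in knockdown replicate 1, lay near the cut at 15139 peaks, so their loss may rest on that order.

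**Figure D4:**
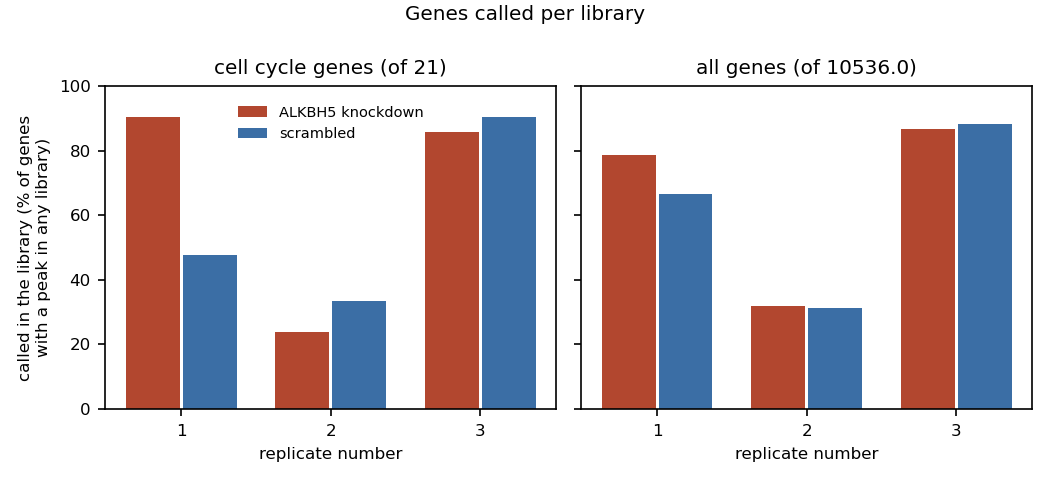
Share of genes called in each library, in percent of the genes with a peak in any library, for the 21 cell cycle genes (left panel) and all 10536 genes (right panel), with ALKBH5 knockdown (red) left of scrambled (blue) at each replicate number. The gap of replicate 1, 90.5% against 47.6% for the cell cycle genes, is 78.5% against 66.5% for all genes.

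Over the libraries, 6 of the 21 genes (28.6%) were called in more knockdown than scrambled libraries, beside 26.1% of all genes, and 0 in fewer, beside 17.1%. The 6 were CDK2, CDC14B, CDC27, AURKA, BUB1 and E2F1, each by a single library. All 6 differed in replicate 1 only. Without knockdown replicate 1, 7 members, among them all of these except BUB1, were called in a larger share of knockdown than of scrambled libraries, beside 31.6% of all genes. In the same setting 8 were called in a smaller share, beside 43.2% of all genes. That setting kept scrambled replicate 1, so 2 knockdown libraries were set against 3 scrambled ones. Each of the 7 was called there only in replicate 3 of both conditions. Their larger share was thus 1 of 2 libraries against 1 of 3, with no difference in calls. Of the 8, CDK6, CDC7, MCM5, MCM7 and WEE1 had the same calls in both libraries of each replicate number. They counted as smaller because scrambled replicate 1 was kept without its partner. Only CDC16, E2F2 and CDC25B differed within a remaining pair. The knockdown libraries called 19, 5 and 18 members and the scrambled libraries 10, 7 and 19, a mean of 14 ± 7.81 against 12 ± 6.25 (SD, n = 3 each). That difference of 2 was smaller than either SD. The SDs include the differences between replicate numbers, which both conditions share, so they do not measure the spread of the paired differences. By pair, the knockdown called more members in replicate 1 and fewer in replicates 2 and 3. The difference in means was 0.6667 with lists of equal size, 1.333 with the best-scored 50% of each list, and -0.5 without knockdown replicate 1 or without scrambled replicate 2. Leaving out a single library kept its partner, so the methods were no longer balanced. Without both libraries of replicate 2, which keeps the balance, the difference in means was 4.0. No region of the 30 was called in all 3 knockdown and no scrambled library (0.132% of all regions) or the reverse (0.00941%). There were 5 regions called in all 6 libraries (13.0% of all regions) and 6 called in a single library (28.8%). Without replicate 2, 1 region, the middle one of E2F2, was called in both knockdown and neither scrambled library, beside 2.32% of all regions.

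The members' covered length followed the same division. Summed over the members it was 5340, 813 and 7283 nt in knockdown replicates 1, 2 and 3, from 23, 7 and 22 peaks with means of 232.2, 116.1 and 331.0 nt. In the scrambled replicates it was 2522, 1143 and 7909 nt, from 12, 7 and 22 peaks with means of 210.2, 163.3 and 359.5 nt. The ratios of knockdown to scrambled were 2.12, 0.711 and 0.921, where the whole lists gave 1.56, 1.13 and 1.00. The mean was 4479 ± 3320 nt in the knockdown and 3858 ± 3575 nt in the scrambled cells (SD, n = 3 each). These SDs too include the differences between replicate numbers. The difference of 620.7 nt turned to -781.5 nt without knockdown replicate 3, -47.33 nt without scrambled replicate 1 and -736.8 nt without scrambled replicate 2. Each of these settings kept the partner of the library left out, so the methods were no longer balanced. Without both libraries of replicate 2, which keeps the balance, the difference was 1096 nt. It was -418.5 nt with lengths scaled to the total of each list.

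Among genes called in both libraries of a pair, the length ratios again differed by replicate number. In replicate 1, 8 of 10 members were longer in the knockdown, beside 81.9% of 6483 genes, and the median log2 ratio was 0.735 against 0.56 over all genes. In replicate 2, 1 of 5 was longer and 3 were shorter (median -0.22), beside 52.5% and 39.9% of 2531 genes (median 0.11). In replicate 3, 6 of 18 were longer and 7 shorter, with the other 5 equal, beside 48.9% and 45.2% of 8463 genes, and both medians were 0. No member was longer in the knockdown in every pair, against 13.0% of all genes, and none was shorter in every pair, against 1.42%. Only the 5 members with a peak in both replicate 2 libraries and those called there in just the scrambled library could meet either condition. Without replicate 2, 6 members were longer in both remaining pairs, CDK6, CDC25A, CDC14B, CDC16, MCM3 and MCM5. They were 28.6% of the 21, beside 35.2% of all genes.

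A test of covered length could be made for the 5 members called in all 6 libraries. The log2 covered length was fitted with limma over the 2452 genes called in every library, with the replicate number as a block. No gene passed a Benjamini-Hochberg adjusted p of 0.05 (0%, with 222 at an unadjusted p under 0.05), so none of the 5 members did. The log2 fold change, knockdown over scrambled, was 0.80 ± 0.57 (SE) for CDKN1B, with an adjusted p of 0.608. It was 0.34 ± 0.46 for MCM2, 0.25 ± 0.32 for MCM3, 0.10 ± 0.30 for E2F3 and -0.38 ± 0.46 for CDC25A, with limma adjusted p of 0.767, 0.751, 0.879 and 0.744. The median over all genes fitted was 0.26, and it was -0.02 with the library medians set equal. With the medians set equal CDKN1B and MCM2 lay at 0.52 and 0.06, and MCM3, E2F3 and CDC25A at -0.03, -0.18 and -0.66. Without both libraries of replicate 2, the CDC25A value was 0.33.

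Among 66 other genes of the pathway, 41 had a peak (62.1%), beside 48.6% of protein-coding genes. Of the 41, 3 (7.32%) were called in all 6 libraries, beside 23.3% of all genes with a peak. The 3 were CCNF, a cyclin-like F-box protein, FZR1, an activator of the anaphase-promoting complex, and CUL1, the scaffold of SCF ubiquitin ligases. FZR1 peaks covered 1109, 691 and 1049 nt in knockdown replicates 1, 2 and 3, against 1080, 510 and 1079 nt in the scrambled replicates. Replicate 2 was the lowest in both conditions, and the other values lay close together. Of the 41 with a peak, 13 (31.7%) were called in more knockdown than scrambled libraries and 7 (17.1%) in fewer, where all genes gave 26.1% and 17.1%. Of the 41, 2 were longer in the knockdown in every pair, where the share of all genes was 13.0%. Another 1, GINS3, was shorter in every pair, where the share of all genes was 1.42%. CDKN2C, an inhibitor of the D cyclin kinases, was longer, with 1080, 120 and 1649 nt against 271 nt, no peak and 573 nt. ANAPC7, a subunit of the anaphase-promoting complex, was the other, with 658, 151 and 749 nt against 120 nt, no peak and 719 nt. Peaks were listed for neither the retinoblastoma gene RB1 nor its relatives RBL1 and RBL2.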

How the data were processed

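The 6 deposited peak lists of m6A immunoprecipitates were analysed, 1 per library, so peaks were not called on pooled samples. Per the submitters' processing notes, CASAVA 1.8.2, TopHat2, SAMtools and the hg19 genome were used. The peak caller, its threshold and any use of the inputs: not given in the sources used here. The score that the authors deposited per peak runs from 0 to 0.011 and was taken as a p-value from that range. It was used only to rank peaks within a list. Symbols came from the RefSeq table of GRCh38.p14, used for names only, which matched all 37 members. Peaks without a gene number (7.43 to 8.64% of a list) were left out of gene counts. No peak of another gene lay within the members' peak spans.

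Python 3.11.15, pandas 2.3.3 and limma 3.58.1 under R 4.3.3 were used. limma was fitted across all 2452 genes called in every library. It was also run on simulated data with the same spread for every gene and no replicate effect. Such data cannot show what the fit would detect in these libraries. The replicate numbers pair the libraries, since the labels' protocol ties each to a method; after subtraction of group means, the 2 libraries of a number correlated at 0.332, 0.502 and 0.591 over genes. The members and lists were chosen with earlier results of these data known, so no p was computed over the members. The rule for named genes took every member, with lengths per library for those with the most peaks or covered length and those in the fit; lengths of the other members with a peak, and the pathway genes called in 6 libraries or moving one way in every pair, were added after their values were seen. Alternatives are in the closing section.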

Additional observations from a re-analysis of the deposited data

How the results depend on the processing

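The count of genes past the threshold of the limma fit was 0 under every alternative, the fit with no replicate block (0) included, except without scrambled replicate 2, where it was 62 of 3097 genes, no member among them, in a fit that gave the 5 members a common SE of 0.4418, so leaving out libraries gave 0 to 62. Leaving out each library in turn gave -0.5 to 6.5 for the difference in members called, -781.5 to 2646 nt for that in covered length, 0 to 6 members longer and 0 to 2 shorter in every remaining pair, and 7 to 16 members called in a larger and 0 to 8 in a smaller share of knockdown libraries. It gave 0 to 1 regions called in all knockdown libraries only. Each of these settings left 2 libraries of a condition against 3 of the other. For most of these counts the share over all genes was not counted. The difference in members called was 1.333 with the best-scored 50% of each list and 0.6667 with lists of equal size, and that in member peaks was 1.0 under both. The members that replicate 1 called in the knockdown alone numbered 5 with its lists made equal and 3 with all lists of equal size. Those it called in the scrambled library alone numbered 1 and 2. These alternatives were chosen after seeing the data. The cut to lists of equal size could keep none of the 9 members of the main comparison, whose peaks all ranked below it. Members in more and in fewer knockdown libraries numbered 6 and 3 with the best-scored 50% of each list. They numbered 5 and 4 with lists of equal size. With lengths scaled to the list totals, the difference in covered length was -418.5 nt and 1 member was shorter in every pair. The shares over all genes were not counted for these settings, so the counts cannot be set beside them. Without both libraries of replicate 2, 6 members were longer in every pair, beside 35.2% of all genes, and 1 region, in E2F2, was called in all knockdown libraries only, beside 2.32% of all regions. The log2 fold change of the fit changed sign with library medians set equal for E2F3 (-0.18) and MCM3 (-0.03), and without both libraries of replicate 2 for CDC25A (0.33). When libraries were left out in turn it ran from -0.15 to 0.29 for E2F3, -0.36 to 0.79 for MCM2, -0.06 to 0.49 for MCM3 and -0.76 to 0.33 for CDC25A, and 0.04 to 1.66 for CDKN1B. MCM2, MCM3 and CDKN1B could not be fitted with the best-scored 50% or with lists of equal size, nor CDC25A with the best-scored 50%. In those settings they were no longer called in every list, which the fit required. The cause of the other shifts between settings was not tested. Depth is unknown and limits all calls.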
